A study of Rattus norvegicus with 9 samples.

Results

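Uterine tissue from gonadotropin-induced rats was compared with uterine tissue from untreated rats. The induced side held 6 arrays, taken by the condition in the labels: 3 model arrays (21, 22 and 23) and 3 treatment arrays (31, 32 and 33). The other side held 3 control arrays (41, 42 and 43), so the comparison used all 9 arrays of the series. Model rats were female rats injected intraperitoneally with 0.5 U of pregnant mare serum gonadotropin (PMSG) and, 48 h later, human chorionic gonadotropin (hCG). Treatment rats received the same injections, and also electric stimulation of needles at Guanyuan and Sanyinjiao (electroacupuncture), 15 min a session on 7 days before the induction and onward through it. Control rats received neither hormones nor needles. Strain, age and the stage of the oestrous cycle of the control rats are not given in the labels. The labels speak of 18 rats, 6 in a group, and do not say that each array is a separate animal, so the p-values measure the spread between these arrays, which may be partly technical. The 6 induced arrays share the hormones, and electroacupuncture came with 3 of them.

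PMSG acts like follicle-stimulating hormone and drives the growth of a cohort of ovarian follicles, and hCG acts like luteinizing hormone and makes them ovulate and form corpora lutea. The uterus then meets oestrogen from the follicles and afterwards progesterone from the corpora lutea. Oestrogen makes the uterine epithelium proliferate and secrete, and progesterone turns the tissue towards receptivity, the state in which an embryo can attach and the stroma can decidualize. The series title names endometrial receptivity and regulation of VEGF, the main growth factor of blood vessels, as its subject.

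After a filter on dim probe sets, 10973 genes were tested with limma, each with the brightest probe set that carries its symbol alone. Levels below are log2(intensity + 16), and a difference is the mean of the 2 induced arms minus the control mean on that scale, which understates the change of dim genes. A gene is called at an adjusted p under 0.05. Gene lists hold 604 entries, of which 460 are measured, meaning that a probe set with that symbol alone passed the filter. Median intensities were alike, at 23.56 to 24.02 on the 9 arrays. Only 9 arrays limit the precision of every value. The RNA came from whole tissue, so fewer cells of a type and less RNA per cell cannot be told apart.

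Control 43 stood apart from the other untreated arrays. Its levels correlated at r = 0.9446 with control 41 and at 0.9594 with control 42, which correlated with each other at 0.9889, and at 0.985 with model 21. These correlations run over probe sets and not over replicates. The spread among controls, a pooled SD of 0.357, was above that among the 6 induced arrays, 0.252. Smooth muscle genes such as Myh11 and Tagln, and the uterine transcription factor gene Hoxa11, were measured on every array. The summed intensity of 19 measured epithelial marker genes was 21450 in control 41 and 15980 in control 42 but 5109 in control 43, and ranged from 4086 to 6970 in the induced arrays. The ratio of 3′ to 5′ signal for Actb, a measure of RNA integrity, was highest in control 43, at 7.84 against 5.07 to 7.0 in the others. The same ratio for Gapdh was 1.298 in control 43 and highest in model 21, at 1.393. The part of RNA quality in the results was not tested. Counts of calls below are given with and without control 43.

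In the induced uterus 63 of 10973 genes (0.574%) were called, 16 higher (0.146%) and 47 lower (0.428%). Igfbp1 and Cyp26a1 rose most, and Rarres1, Lratd1 and Prom1 fell most. A change of over 2-fold was measured for 10 of the genes called higher and 15 of those called lower, and the median size of a called change was 0.84 on the log2 scale. All 6 induced arrays lay on 1 side of all 3 controls for 62 of the 63, the exception being the nucleoside transporter gene Slc28a2, at 5.59 to 6.88 in induced arrays and 6.88 to 7.34 in controls. Over all genes tested the sides did not overlap for 687 (6.26%), 283 higher and 404 lower. At an unadjusted p under 0.05 by limma, which was not adjusted for the genes tested and is no call, 666 genes were higher (6.07%) and 1015 lower (9.25%). The median difference over all genes was -0.0025. With the arrays brought to equal quantiles, the calls were 21 higher and 37 lower, a share of 36.2% higher against 25.4% as deposited.

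With control 43 left out, 1237 of 10933 genes (11.3%) were called, 435 higher (3.98%) and 802 lower (7.34%). Of the 63 genes called with all arrays, 61 could be tested without control 43, and all 61 were called again. The sign also stayed the same, as it must for a probe set whose sides did not overlap. These 61 calls are no separate support, since both fits share the remaining arrays and the second called many more genes. The genes that could not be tested, H4f3 and Smpd3, had passed the filter on dim values only through the 3 controls, with 0 induced arrays at or above it. For 706 of the 1237 (57.07%), control 43 itself lay within the range of the 6 induced arrays. It lay there for 1 of the 63, since the sides of the other 62 did not overlap. Both counts follow in part from how the genes were called, with control 43 left out or kept in. The share over all genes was not counted. In 39 of the 63, control 43 was the control nearest to the induced arrays, a share that was likewise not counted over all genes.

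Igfbp1 gave the largest rise. Its product binds insulin-like growth factors and is secreted by decidual stroma and by liver. Its level was 4.75, 5.06 and 5.83 in controls 41, 42 and 43, and 8.52 at the lowest, 9.28 at the median and 9.83 at the highest of the 6 induced arrays. The lowest induced array thus stood 2.69 above the highest control. The log2 difference was 4.08 (SE 0.33, adjusted p = 0.00538), which is 16.9-fold on the scale of intensity + 16, and 4.39 without control 43. Control 41 was below the filter on dim values, and the difference ran from 2.98 to 4.87 over the settings that kept all arrays. Igfbp1 was called whichever of the 9 arrays was left out.

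Cyp26a1, which encodes the hydroxylase that breaks down retinoic acid, measured 4.54, 4.42 and 4.54 in controls 41, 42 and 43. The induced arrays ran from 6.78 through a median of 7.69 to 8.68. The 3 controls were all below the filter on dim values and close together, and the 6 induced arrays were all well above them. The difference was 3.23 (SE 0.33, adjusted p = 0.0168). Since the controls lay near the floor of the scale, its size was uncertain, at 1.90 to 4.69 over the settings that kept all arrays. Leaving out each array in turn, Cyp26a1 was called in 6 of 9 fits.

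Rarres1, named as a gene that retinoic acid receptors turn on, went the other way. Controls 41, 42 and 43 measured 9.92, 9.83 and 9.60. The induced arrays ran from 5.95 through 6.76 to 8.79, the highest being model 22. The controls lay close together and above every induced array, whereas the induced arrays spread widely. The difference was -2.76 (SE 0.40, adjusted p = 0.0346).

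Among 20 measured genes of retinoic acid synthesis, binding, breakdown and response, Cyp26a1 was the 1 called higher and Rarres1 the 1 called lower, and 18 did not pass. The median difference of the list was -0.05. Crabp1, a cytosolic carrier of retinoic acid, and Lrat, which stores retinol as esters, had differences of 1.50 and 1.95 (adjusted p = 0.200 and 0.277). Lrat was 5.25 in model 22 and 6.77 in model 21 but 9.34 to 10.86 in the other 4 induced arrays, with controls at 6.68 to 6.76. Without control 43 the list held 2 genes called higher and 4 lower, against 3.98% and 7.34% of all genes, which is the background of every count of list members without control 43.

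The promoters of these 3 genes are shown because Igfbp1 changed most and because Cyp26a1 and Rarres1 belong to the retinoic acid response. Each is the 250 bases before the gene's start in RefSeq (rat build GRCr8), written along the gene's strand. Capitals mark matches, on either strand, to TGAACT or AGGTCA (half-sites of retinoic acid receptors), AGAACA (half-site of steroid receptors), and GTAAACA or CAAAACA (sites of FOXO factors and of the insulin response). Igfbp1 is at chr14:86261027-86261276 (+), Cyp26a1 at chr1:244883572-244883821 (+) and Rarres1 at chr2:154094022-154094271 (-).
Igfbp1: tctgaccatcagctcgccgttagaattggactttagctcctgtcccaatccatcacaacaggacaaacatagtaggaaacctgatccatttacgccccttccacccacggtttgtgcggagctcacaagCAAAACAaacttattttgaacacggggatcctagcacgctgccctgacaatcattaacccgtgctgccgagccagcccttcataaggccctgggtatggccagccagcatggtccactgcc
Cyp26a1: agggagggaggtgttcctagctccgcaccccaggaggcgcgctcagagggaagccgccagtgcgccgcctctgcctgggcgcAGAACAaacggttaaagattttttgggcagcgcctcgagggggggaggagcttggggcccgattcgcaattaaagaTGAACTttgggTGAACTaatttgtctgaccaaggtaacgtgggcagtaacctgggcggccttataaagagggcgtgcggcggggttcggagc
Rarres1: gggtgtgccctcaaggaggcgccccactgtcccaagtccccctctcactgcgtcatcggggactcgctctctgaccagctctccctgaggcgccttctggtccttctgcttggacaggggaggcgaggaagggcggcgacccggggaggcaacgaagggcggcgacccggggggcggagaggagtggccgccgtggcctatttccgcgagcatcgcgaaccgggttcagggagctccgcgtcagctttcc

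The Cyp26a1 promoter held TGAACT 2 times on the gene's strand with 5 bases between the copies, at bases 92 to 87 and 81 to 76 before the start. This arrangement was counted after it was seen there, and it occurs in 3 of 27457 rat promoters of the same length (0.0109%). A single TGAACT occurs in 12.1% and AGGTCA in 13.7% of them. Cyp26a1 also held AGAACA, found in 17.1% of promoters, and Igfbp1 held CAAAACA, found in 5.46%, while GTAAACA occurs in 3.25%. None of these matches overlapped another, and Rarres1 had no match to any of the 5 motifs in this window. Of the 63 called genes, 50 had a promoter in the RefSeq table. TGAACT was in 4 of the 50, AGGTCA in 9, AGAACA in 7, CAAAACA in 2 and GTAAACA in 0. A match describes the letters and is no shown site of binding.

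**Figure D1:**
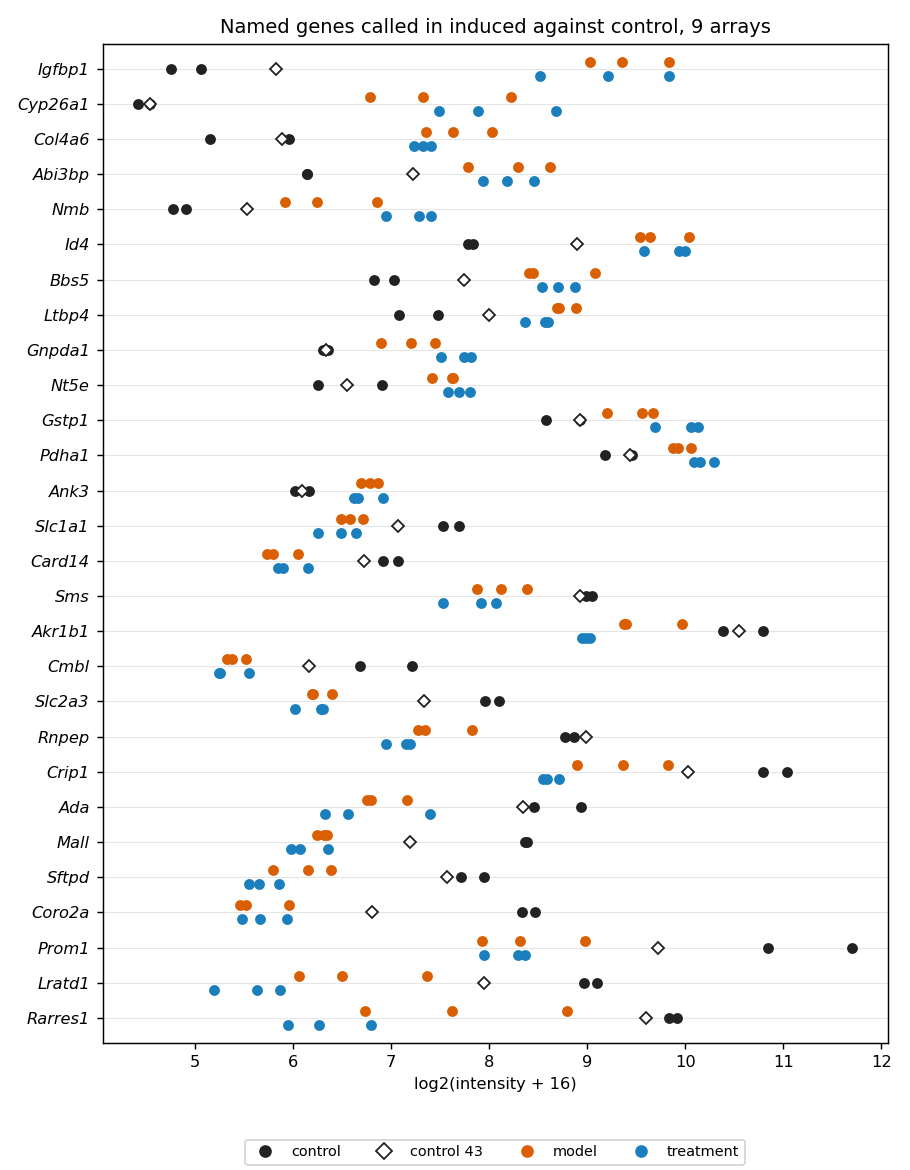
Level of each named called gene on every array, as log2(intensity + 16) on the horizontal axis, with controls in black (control 43 as an open diamond), model arrays in orange and treatment arrays in blue. These 28 genes were picked with the 6 induced arrays on 1 side of the 3 controls. Igfbp1 has the widest gap, 2.69, and Crip1 the narrowest, 0.21.

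The growth factor binding proteins of the insulin-like system bind the ligands Igf1 and Igf2 outside the cell. Of 13 measured genes of this system, Igfbp1 was the 1 called higher and none was called lower, with 10 positive differences and a median of 0.23. Igfbp6 measured 9.48, 10.55 and 9.66 in controls 41, 42 and 43 and 11.03 to 11.49 in induced arrays, without overlap (difference 1.29, adjusted p = 0.0517). Igfbp7 measured 10.53, 10.76 and 11.32 in controls and 11.61 to 12.95 in induced arrays, also without overlap (difference 1.61, adjusted p = 0.0542). Igfbp3 overlapped, at 6.78 to 8.59 in controls and 8.29 to 10.10 in induced arrays. Without control 43, 5 genes of the system were called, all higher.

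Of 23 measured receptivity and decidualization genes, Igfbp1 was the 1 called higher and 0 were called lower. Their differences went both ways, from -0.82 to 4.08 with a median of 0.007. The sides did not overlap for 4 of the 23 (17.4%, against 6.26% of all genes). Over the 32 lists this share ran from 0%, as in the oestrogen-induced genes, to 33.3% in the adenosine genes, so it is not particular to receptivity genes. At an unadjusted p under 0.05 by limma, 4 of the 23 were higher and 3 lower. Spp1 encodes osteopontin, a secreted ligand of integrins at the implantation surface. It measured 6.51, 6.77 and 8.30 in controls 41, 42 and 43 and ran from 8.97 through 10.67 to 12.10 in induced arrays, without overlap (difference 3.36, adjusted p = 0.126). Spp1 was near 9 in models 21 and 22 (8.98 and 8.97) and higher in the other 4 induced arrays, from 9.76. Stat3, the transcription factor of LIF signalling, and the integrin gene Itgb1 had differences of -0.40 and 0.37 (adjusted p = 0.0653 and 0.140). Without control 43, 5 members were called higher and 3 lower, 34.8% against 11.3% of all genes, with Spp1 among the former.

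Steroid-responsive genes gave few calls with all arrays. Of 17 measured genes that progesterone induces in rodent uterus, Cyp26a1 was called higher and none lower. Fxyd4, a regulator of the sodium pump, measured 8.78, 7.43 and 8.60 in controls and 5.01 to 7.11 in induced arrays, without overlap (difference -2.63, adjusted p = 0.0540). Lrp2, which encodes the endocytic receptor megalin, was 4.83 and 5.07 in controls 41 and 42, 8.13 in control 43 and 7.51 to 9.43 in induced arrays. Without control 43, 3 genes of this list were called higher and 1 lower. Of 25 measured genes that oestrogen induces, 0 were called in either direction with all arrays, and 2 higher and 6 lower without control 43. The water channel gene Aqp5 measured 8.34, 8.01 and 9.63 in controls and 9.53 to 10.31 in induced arrays (difference 1.23, adjusted p = 0.180). The list's median was 0.09 with control 43 and -0.14 without it.

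C3 encodes the central complement protein, which oestrogen induces in rat uterus. It measured 12.33 and 12.08 in controls 41 and 42 and 4.87 in control 43, with 7.04 in model 21 and 10.64 to 11.56 in the other induced arrays. Its difference was 0.69 (SE 1.64, adjusted p = 0.875) with control 43 and -1.76 (adjusted p = 0.237) without it, so the direction turned on that array and neither value passed. Calca, the calcitonin gene, was at 9.07 in control 43 and at 5.17 to 5.70 on the other 8 arrays.

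Of 10 measured steroid receptor and steroid enzyme genes, 0 were called with all arrays and 1 higher without control 43, and Esr1 was not among the genes tested. Pgr, the progesterone receptor gene, measured 6.96, 5.90 and 6.13 in controls and 6.04 to 6.46 in induced arrays, with overlap (difference -0.03, adjusted p = 0.958). Hsd11b1, whose enzyme makes active glucocorticoid, was 6.41 in model 21 and 7.71 in model 22 but 9.86 to 10.48 in the other 4 induced arrays, with controls at 6.07 to 7.03 (difference 2.43, adjusted p = 0.204). Of 13 measured genes that glucocorticoids induce, 0 were called, 10 had positive differences and the median was 0.19. Without control 43, 3 of them were called higher, among them Tsc22d3, the glucocorticoid-induced leucine zipper, and the metallothionein gene Mt2A. Mt2A was 11.04 in control 43, against 8.78 and 8.94 in the other controls and 10.06 to 11.56 in induced arrays.

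The VEGF system had no call with all arrays. Of 13 measured ligands, receptors and partners, 0 passed and the median difference was -0.03. Vegfa, the main ligand, measured 6.86, 6.76 and 7.30 in controls 41, 42 and 43 and 7.00 to 7.36 in induced arrays. The sides overlapped through control 43 (difference 0.19, SE 0.12, adjusted p = 0.510). Vegfb, a related ligand, measured 6.05, 6.76 and 6.87 in controls and 7.02 to 7.61 in induced arrays, without overlap (difference 0.70, adjusted p = 0.133). Kdr, the main signalling receptor, measured 6.64 to 7.66 in controls and 6.13 to 7.47 in induced arrays (difference -0.03, adjusted p = 0.970). Nrp2, a coreceptor, was 7.59, 7.73 and 7.27 in controls and 6.77 to 7.20 in induced arrays (difference -0.57, adjusted p = 0.0635). Without control 43, 3 were called higher, Vegfb, Vegfa and Epas1 at adjusted p = 0.0227, 0.0445 and 0.0494, and Nrp2 lower at 0.00317.

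Extracellular adenosine is made from AMP by the ectoenzyme encoded by Nt5e and removed by adenosine deaminase, encoded by Ada. Nt5e measured 6.25, 6.91 and 6.55 in controls and from 7.42 through 7.63 to 7.80 in induced arrays, a rise of 1.05 (SE 0.14, adjusted p = 0.0296). Ada measured 8.94, 8.46 and 8.34 in controls and from 6.33 through 6.77 to 7.40 in induced arrays, a change of -1.75 (SE 0.24, adjusted p = 0.0335). The sides of both genes were apart, by 0.51 for Nt5e and 0.94 for Ada. Of 12 measured genes of adenosine production, removal and reception, these were the 1 called higher and the 1 called lower, and the list's median was 0.02. Without control 43 the list held 2 calls in each direction. The adenosine kinase gene Adk did not overlap either, at 8.01 to 8.76 in controls and 8.89 to 9.08 in induced arrays (difference 0.63, adjusted p = 0.126).

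Sftpd encodes surfactant protein D, a collectin of mucosal surfaces. It measured 7.95, 7.71 and 7.57 in controls and from 5.55 through 5.83 to 6.39 in induced arrays. The induced arrays were all at least 1.18 below the controls. The change was -1.85 (SE 0.15, adjusted p = 0.00538), and Sftpd was called whichever of the 9 arrays was left out. It was the 1 call among 13 measured secreted and mucosal defence genes, whose median was -0.27 with control 43 and -1.19 without it, with 5 called lower in the latter case.

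Rnpep encodes aminopeptidase B, which trims basic residues from peptide ends. Controls 41, 42 and 43 measured 8.86, 8.77 and 8.99. The induced arrays ran from 6.95 through 7.23 to 7.82. Control 43 was the highest array for this gene, so the change was slightly smaller without it: -1.59 (SE 0.13, adjusted p = 0.00538) with all arrays and -1.52 without. Rnpep was also called whichever of the 9 arrays was left out, and it was the 1 call among 14 measured peptidases, which had 2 called higher and 3 lower without control 43. Prcp, a carboxypeptidase gene, had a difference of -1.15 (adjusted p = 0.0793), with 8.43, 8.22 and 7.32 in controls and 6.60 to 7.16 in induced arrays.

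Col4a6 encodes a chain of basement membrane collagen IV that pairs with Col4a5. It measured 5.15, 5.96 and 5.89 in controls and from 7.23 through 7.39 to 8.03 in induced arrays, a rise of 1.83 (SE 0.20, adjusted p = 0.0168). A further probe set of Col4a6 gave 1.35. Col4a5 measured 8.60, 9.76 and 9.38 in controls and 10.12 to 10.35 in induced arrays, without overlap (difference 1.02, adjusted p = 0.103). Of 18 measured basement membrane genes, Col4a6 was the 1 called higher and none was lower, 14 had positive differences and the median was 0.22. Of 21 stromal matrix genes 0 were called, with a median of 0.12; the proteoglycan gene Bgn was the nearest, at 8.51 to 9.34 in controls and 9.66 to 10.37 in induced arrays (adjusted p = 0.107). Without control 43, 4 basement membrane genes were called higher and 1 lower, and 2 stromal matrix genes higher, which is 9.52% of that list against 11.3% of all genes.

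Abi3bp, a matrix protein gene, measured 6.14, 6.14 and 7.22 in controls and 7.78 to 8.62 in induced arrays, a rise of 1.71 (SE 0.28, adjusted p = 0.0477). Ltbp4, whose protein holds latent TGF-beta in elastic fibres, rose by 1.12, from 7.08 to 8.0 in controls to 8.37 to 8.89 in induced arrays. Ank3, which encodes the membrane adaptor ankyrin-G, rose by 0.67, and its other probe sets gave 0.25 and 0.07. Control 43 was the control nearest to the induced arrays for Abi3bp and Ltbp4.

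Nmb encodes neuromedin B, a bombesin-like peptide. It measured 4.78, 4.91 and 5.53 in controls 41, 42 and 43 and from 5.92 through 6.91 to 7.41 in induced arrays, a rise of 1.70 (SE 0.24, adjusted p = 0.0335). Controls 41 and 42 were below the filter on dim values, and the difference ran from 0.96 to 2.37 over the settings that kept all arrays. The 3 treatment arrays, at 6.95 to 7.41, all lay above the 3 model arrays, at 5.92 to 6.86. Id4, an inhibitor of helix-loop-helix transcription factors, measured 7.83, 7.78 and 8.90 in controls and 9.54 to 10.04 in induced arrays, a rise of 1.62 (SE 0.26, adjusted p = 0.0462). Its 3 further probe sets gave 1.05 to 1.38. Bbs5, a subunit of the ciliary BBSome, measured 6.83, 7.03 and 7.74 in controls and 8.41 to 9.08 in induced arrays, a rise of 1.48.

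Epithelial marker genes were lower on the induced side, and 1 of 19 measured passed. Of the 19 differences 18 were negative, with a median of -0.77 against -0.0025 over all genes. Without control 43 the median was -1.22, and 13 were called lower (68.4%, against 7.34% of all genes) and 0 higher. These markers were among the values that set control 43 apart, so the larger count without it follows in part from leaving out that array. Prom1, which encodes the apical membrane protein prominin-1, was the call. It measured 11.70, 10.84 and 9.72 in controls 41, 42 and 43 and from 7.93 through 8.30 to 8.98 in induced arrays, a change of -2.45 (SE 0.40, adjusted p = 0.0477). Epcam, the epithelial adhesion molecule gene, had a small difference of -0.53 (adjusted p = 0.126), at 10.69, 10.49 and 10.37 in controls and 9.75 to 10.34 in induced arrays. The mean deviation of the 19 markers was 1.36 and 1.0 in controls 41 and 42, -0.54 in control 43 and -0.61 to -0.01 in induced arrays. Control 43 thus lay within the induced range, and controls 41 and 42 above it. The part that epithelial content had in the genes called lower was not tested.

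Control 43 was the lowest of the controls for 31 of the 47 genes called lower. The share over all genes was not counted, so this is not shown to be particular to the called genes. Lratd1, which encodes an LRAT-domain protein, measured 9.10, 8.97 and 7.95 in controls 41, 42 and 43 and 5.19 to 7.37 in induced arrays (change -2.57, SE 0.34, adjusted p = 0.0296). Coro2a, a coronin that binds actin, measured 8.33, 8.47 and 6.80 in controls and 5.46 to 5.96 in induced arrays, a change of -2.20, and its other probe set gave -0.90. Mall, a proteolipid of membrane rafts, measured 8.39, 8.36 and 7.19 in controls and 5.98 to 6.36 in induced arrays, a change of -1.76. Crip1, a small LIM protein, fell by 1.63, with the narrowest gap of the 28 plotted genes (0.21), from 10.03 to 11.04 in controls to 8.55 to 9.82 in induced arrays. Control 43 was the lowest control for Ada, Sms and Rarres1 as well, but in these, as in Rnpep and Akr1b1, the controls lay within 0.60 of each other.

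Smooth muscle markers went the other way. All 16 measured had positive differences, from 0.08 to 0.77 with a median of 0.44, and 0 were called with all arrays and 2 higher without control 43 (12.5%, against 3.98% of all genes). Desmin (Des) measured 10.42, 11.05 and 10.30 in controls and 11.07 to 11.60 in induced arrays. The mean deviation of the 16 markers was -0.73, -0.002 and -0.13 in controls 41, 42 and 43 and ran from -0.03 to 0.29 in induced arrays. Control 41 stood lowest, and its part in these differences was not tested. The measured markers of endometrial stroma (11), endothelium (14), lymphocytes (5), myeloid cells (11), serosa, oviduct and ovary (5), adipocytes (7), nerve (8) and red blood cells (2) held 0 calls with all arrays. Without control 43, 1 endothelial and 1 nerve marker were called lower, and 1 marker of serosa, oviduct or ovary and 2 adipocyte markers higher. The endothelial transcription factor gene Sox7 was nearest to a call, at 7.95, 8.54 and 8.65 in controls and 6.58 to 7.80 in induced arrays (difference -1.39, adjusted p = 0.0516).

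**Figure D2:**
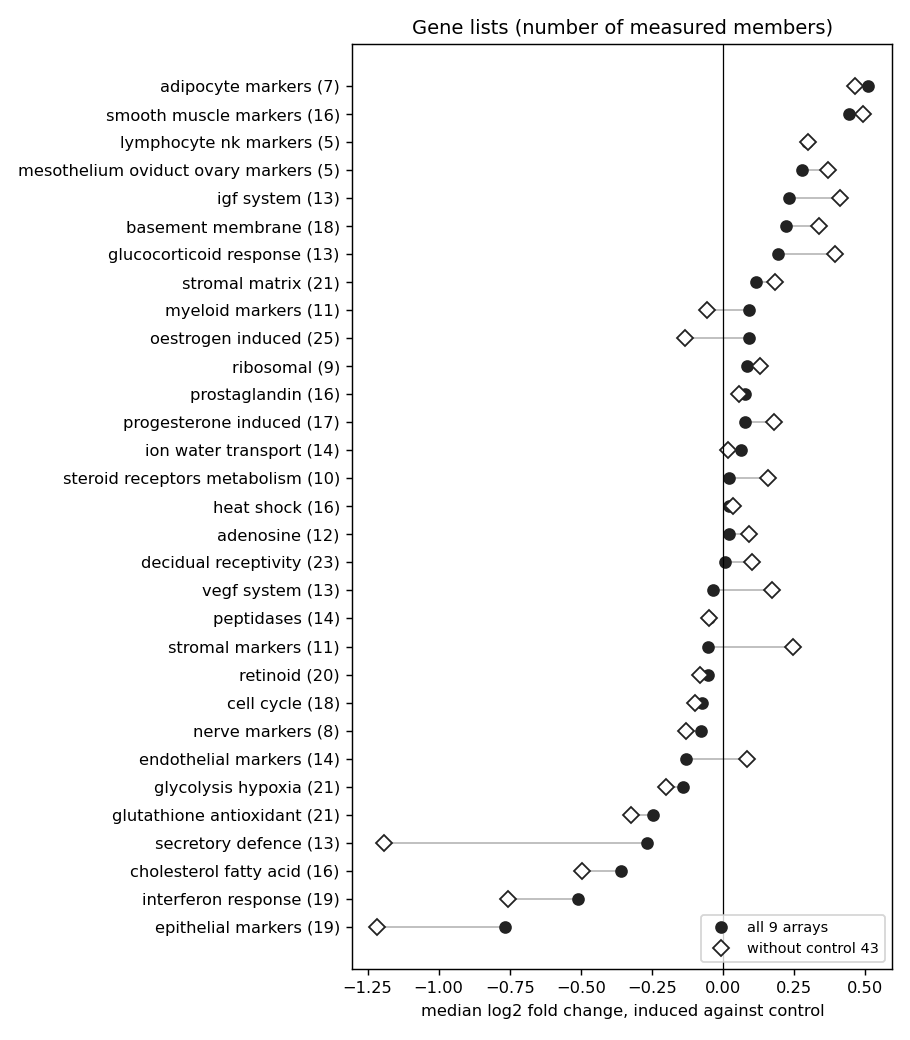
Median log2 difference, induced against control, over the measured members of each gene list with at least 5 of them (number in brackets), with all 9 arrays (filled circles) and without control 43 (open diamonds). Epithelial markers lie lowest in both, at -0.77 and -1.22, the secretory and defence list moves most, from -0.27 to -1.19, and the smooth muscle markers lie at 0.44 with all arrays.

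Glucose and pyruvate genes moved in both directions. Slc2a3, a glucose transporter gene, measured 8.10, 7.96 and 7.33 in controls and from 6.02 through 6.24 to 6.40 in induced arrays, a change of -1.57 (SE 0.17, adjusted p = 0.0168). Its other probe set, below the filter, gave -0.003. Pdha1, a subunit of pyruvate dehydrogenase, measured 9.18, 9.46 and 9.44 in controls and 9.87 to 10.29 in induced arrays, a rise of 0.71 (SE 0.09, adjusted p = 0.0296). These were the 2 calls among 21 measured genes of glucose uptake, glycolysis and hypoxia, with a median of -0.14, and without control 43 there were 2 higher and 5 lower.

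Among 21 measured glutathione and antioxidant genes, Gstp1 was called higher and Sod1 lower, with 15 negative differences and a median of -0.25. Gstp1, a glutathione transferase gene, measured 8.58, 8.93 and 8.93 in controls and 9.20 to 10.13 in induced arrays, a rise of 0.91 (SE 0.15, adjusted p = 0.0477). Sod1, the cytosolic superoxide dismutase gene, measured 10.59, 10.62 and 10.42 in controls and 9.88 to 10.33 in induced arrays, a change of -0.47 (SE 0.08, adjusted p = 0.0477). The peroxiredoxin gene Prdx6, which was on no list and is named after its values were seen, fell by 0.79 (adjusted p = 0.0168), with 8.41 to 8.75 in controls and 7.62 to 7.98 in induced arrays. Without control 43, 2 of the list were called higher and 6 lower.

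Akr1b1 encodes aldose reductase, which also makes prostaglandin F2alpha. It measured 10.79, 10.38 and 10.55 in controls and from 8.95 through 9.20 to 9.97 in induced arrays, a change of -1.29 (SE 0.15, adjusted p = 0.0188). Its second, dimmer probe set gave 0.001. Akr1b1 was the 1 call among 16 measured prostaglandin genes, and 3 were called higher and 5 lower without control 43. Ptgis, prostacyclin synthase, was the nearest on the other side, at 8.62 to 9.16 in controls and 9.46 to 9.72 in induced arrays (difference 0.71, adjusted p = 0.0593). Hpgds, a synthase of prostaglandin D2, was at 4.86 to 4.96 in controls, 4.96 in model 21, 5.67 in model 22 and 7.13 to 8.13 in the other 4 induced arrays (adjusted p = 0.141). Its controls lay near the filter on dim values, and its difference ran from 1.19 to 2.65 over the settings that kept all arrays.

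Other metabolic and transport genes completed the named calls. Gnpda1, glucosamine-6-phosphate deaminase, had the closest controls of the 28 plotted calls, 6.30, 6.36 and 6.34, and measured 6.90 to 7.81 in induced arrays, a rise of 1.11 (SE 0.12, adjusted p = 0.0168). Sms, spermine synthase, measured 9.05, 8.99 and 8.93 in controls and 7.53 to 8.39 in induced arrays, a change of -1.01, and its other probe set gave -1.25. Cmbl, a hydrolase gene, fell by 1.30, but its other probe set gave -0.33. Card14, a scaffold of NF-kappaB signalling, fell by 0.99, from 6.72 to 7.07 in controls to 5.73 to 6.15 in induced arrays. Slc1a1, a glutamate transporter gene, fell by 0.90, from 7.07 to 7.69 in controls to 6.25 to 6.71 in induced arrays. The other 3 genes called higher, named after their values were seen, were the sialyltransferase gene St3gal1 (0.99), the sodium channel subunit gene Scn4b (0.74) and the transglutaminase gene Tgm1 (0.57). Tgm1 passed the filter on dim values only through 4 induced arrays. Its controls were below that filter, at 4.49 to 4.75, and its induced arrays measured 4.87 to 5.52.

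Of 14 measured genes of water and ion transport 0 were called with all arrays, and 3 higher and 4 lower without control 43. Fxyd3, a relative of Fxyd4, measured 9.97, 8.86 and 8.03 in controls and 7.01 to 7.55 in induced arrays (difference -1.69, adjusted p = 0.0999). Interferon response genes had 17 of 19 negative differences, with a median of -0.51 and 0 calls, and 9 called lower without control 43. Stat2, a transcription factor of that response, did not overlap, at 6.98 to 7.58 in controls and 6.60 to 6.86 in induced arrays (adjusted p = 0.126). Cholesterol and fatty acid synthesis genes had 14 of 16 negative differences, with a median of -0.36 and 0 calls, and 1 higher and 6 lower without control 43. Idi1, an enzyme early in that pathway, measured 11.18, 11.35 and 10.54 in controls and 9.48 to 10.49 in induced arrays (adjusted p = 0.144). Cell cycle genes (18, median -0.07), heat shock genes (16, median 0.02) and ribosomal protein genes (9, median 0.09) held 0 calls, and without control 43 there was 1 lower, 1 lower and 0, or 5.56%, 6.25% and 0% of each list.

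Lists without a call still held genes at an unadjusted p under 0.05 by limma, which is no call and which 6.07% of all genes reached as higher and 9.25% as lower. The smooth muscle markers had 8 of 16 higher and 0 lower, and the glucocorticoid-induced genes 5 of 13 higher and 0 lower. The interferon response genes had 4 of 19 lower and 0 higher, and the cholesterol and fatty acid genes 5 of 16 lower and 0 higher. The heat shock genes had 5 of 16 higher and 3 lower, and the water and ion transport genes 3 of 14 higher and 2 lower. Steroid receptors and enzymes had 3 of 10 higher. Near the share of all genes or under it in both directions were the VEGF system, with 1 of 13 in each, the oestrogen-induced genes, with 1 of 25 in each, and the cell cycle genes, with 1 of 18 lower. The stromal matrix genes had 3 of 21 higher and 2 lower, and the endothelial markers 2 of 14 lower. Myeloid markers had 1 of 11 higher, those of serosa, oviduct and ovary 2 of 5, adipocyte markers 2 of 7, and nerve markers 2 of 8 with 1 lower. The ribosomal protein genes and the stromal, lymphocyte and red blood cell markers had 0. The epithelial list, with its 1 call, had 8 of 19 lower and 0 higher.

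The largest differences without control 43 came mostly from genes in which control 43 resembled the induced arrays. Lipf, a lipase gene, was 10.86 and 11.25 in controls 41 and 42, 4.85 in control 43 and 4.73 to 6.97 in induced arrays. Its difference was -5.53 (adjusted p = 0.00265) without control 43 and -3.46 (adjusted p = 0.280) with it. The keratin genes Krt19 and Krt12 and the epithelial transcription factor gene Elf3 had differences of -3.36, -3.09 and -3.46 without control 43, which itself lay inside the induced range for all 3. The same held for Mfsd4a, Gch1 and Fam3b, at -3.36, -3.25 and -3.56. Another probe set of Gch1 gave -0.51 with all arrays. Mmp7, an epithelial matrix metalloproteinase gene, was 12.01, 11.89 and 9.50 in controls and 5.04 to 9.39 in induced arrays, so control 43 lay just above the range (-4.34 without it).

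On the higher side the picture was mixed. Cyp2f4, a cytochrome P450 gene, was 4.70 to 4.79 in all 3 controls, 5.41 in model 21 and 7.78 to 9.08 in the other induced arrays (difference 2.98, adjusted p = 0.080, and 0.0362 without control 43). Its controls were below the filter on dim values, which it passed only through induced arrays. The size of its difference ran from 1.86 to 4.01 over the settings that kept all arrays. Tgfb2, a TGF-beta ligand gene, and Fabp5, a fatty acid binding protein gene, had control 43 as the highest control, at 6.71 and 7.31, below every induced array (7.61 to 9.32 and 7.98 to 9.68). Their differences were 2.40 and 2.10 with control 43 (adjusted p = 0.0619 and 0.0673) and 2.82 and 2.41 without it. Lrp2 and the integrin gene Itgal had control 43 inside the induced range, with differences of 3.83 and 2.41 without it.

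**Figure D3:**
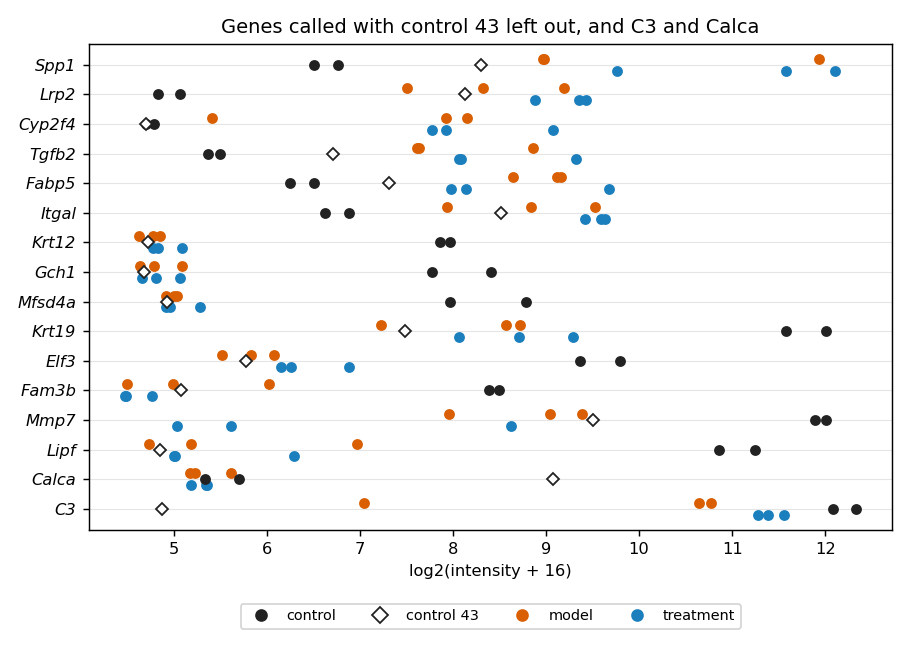
Level on every array, as log2(intensity + 16), of 14 genes with the largest differences when control 43 is left out that are not in the plot of called genes, and of C3 and Calca. The open diamond of control 43 falls among the induced arrays for Lipf, Krt19, Krt12, Elf3, Mfsd4a, Gch1, Fam3b, Lrp2 and Itgal, and away from all other arrays for C3 and Calca.

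The pooled difference averages 2 arms that share the controls. Taken alone against the controls, the model arm gave 3 calls (0.0273%) and the treatment arm 56 (0.51%) with all arrays. Without control 43 the order turned, with 1372 genes of 10933 called in the model arm and 716 in the treatment arm. The direct comparison of treatment with model gave 0 calls (0%) by limma with all arrays, and 0 without control 43. With all arrays that comparison had 1611 genes at an unadjusted p under 0.05 by limma, 501 higher and 1110 lower. Of the 63 pooled calls, 49 had the larger change in the treatment arm and 14 in the model arm, against 51.66% of all genes with the larger change in the treatment arm. The model change was between 0.5 and 2 times the treatment change for 58 of the 63, and under 0.5 times for the other 5. Adap2, an Arf GTPase-activating protein gene, was the least evenly shared: 6.86 to 6.88 in model arrays and 5.97 to 6.25 in treatment arrays, with controls at 6.96 to 7.11.

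Among the 28 plotted calls, the smallest p-values between the arms belonged to Gnpda1, Akr1b1, Nmb, Rarres1 and Gstp1. Treatment minus model was 0.51 for Gnpda1 (95% confidence interval 0.18 to 0.83), -0.59 for Akr1b1 (-0.99 to -0.19), 0.88 for Nmb (0.25 to 1.50), -1.38 for Rarres1 (-2.42 to -0.33) and 0.48 for Gstp1 (0.09 to 0.87). Their adjusted p was 0.286 to 0.290, so none passed, and the intervals are not adjusted for the genes tested. Igfbp1 went slightly the other way, at 4.19 in the model arm and 3.97 in the treatment arm.

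**Figure D4:**
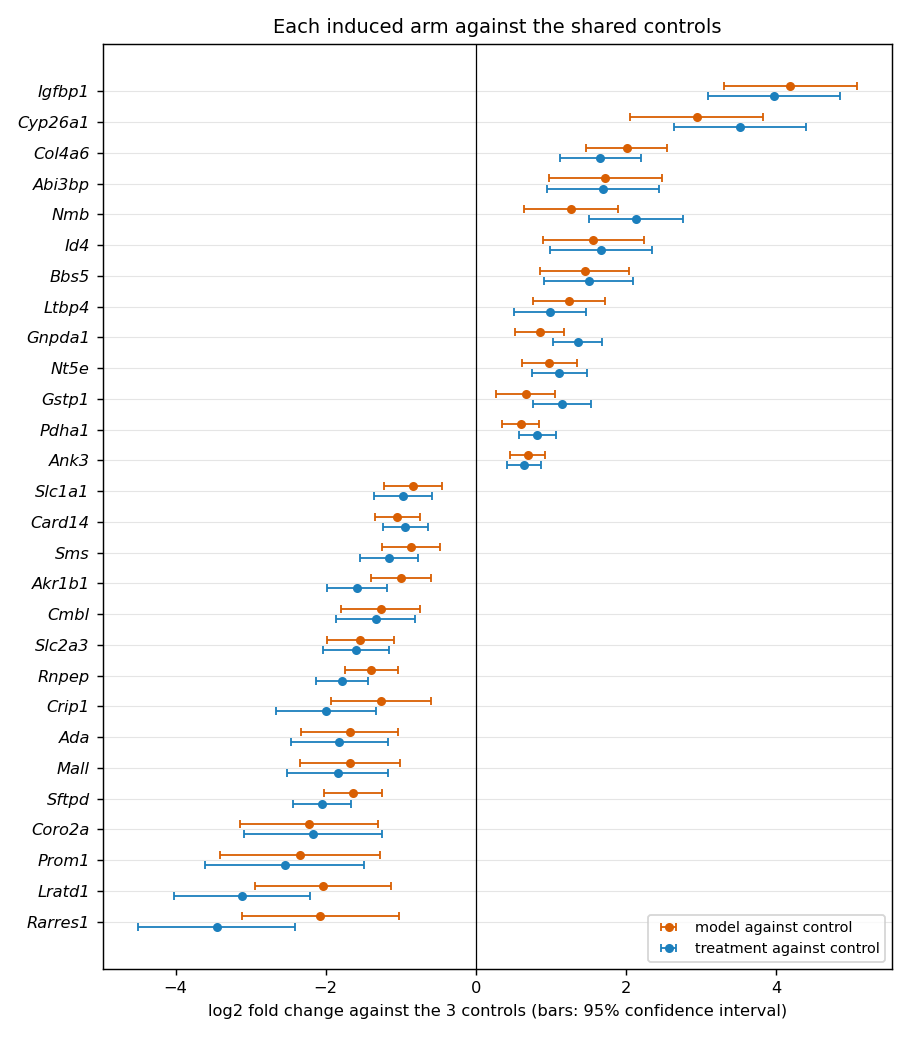
Log2 difference of the model arm (orange) and of the treatment arm (blue) against the same 3 controls for the named called genes, with bars for the 95% confidence interval. Both arms lie on the same side of 0 in all 28 genes, which their selection by non-overlapping sides fixes in advance. For Rarres1 the points lie at -2.07 and -3.45.

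The number of calls rested on single arrays. It was 36 without model 21, 18 without model 22, 20 without model 23, 3 without treatment 31, 21 without treatment 32 and 4 without treatment 33. It was 6 without control 41, 6 without control 42 and 1237 without control 43. The 63 genes kept their sign in each of these fits in which they were tested. For 62 of them the sides did not overlap, so leaving out 1 array could not turn the sign of the same probe set. Igfbp1, Sftpd and Rnpep were called in all 9, Cyp26a1 and Col4a6 in 6, and Gnpda1, Slc2a3, Akr1b1 and Card14 in 5. Nmb, Ank3 and Rarres1 were called in 3, and the other 16 of the 28 plotted genes in 1 or 2.

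**Figure D5:**
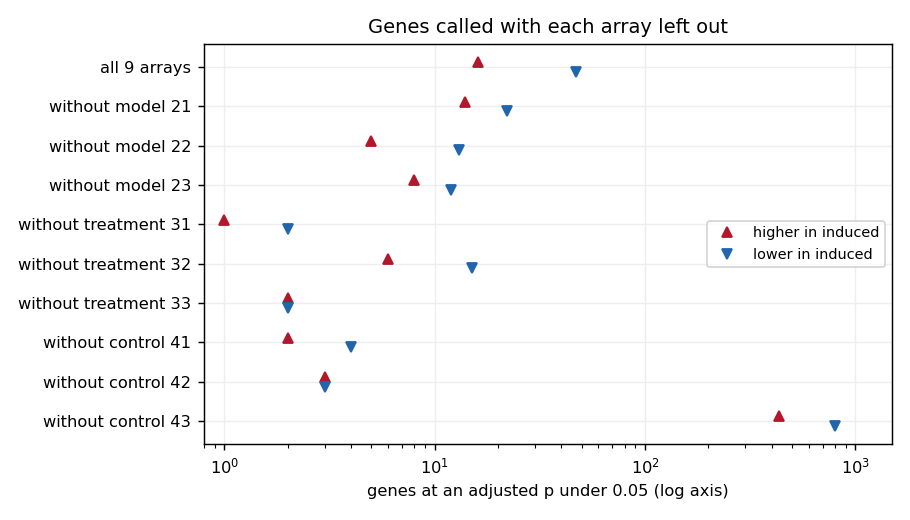
Number of genes called higher (red) and lower (blue) in induced against control uterus with all 9 arrays and with each array left out, on a log axis. The count of 16 higher and 47 lower falls to 1 and 2 without treatment 31 and goes up to 435 and 802 without control 43.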

How the data were processed

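Biotin-labelled total RNA of uterine tissue was hybridised to Affymetrix rat arrays, 1 per sample. The authors deposited an intensity per probe set on a linear scale; MAS5, Affymetrix's probe summary, is named in the submitters' processing notes, without its settings or any scaling. Of 31099 probe sets, 57 controls were left out, and of the other 31042 the platform annotation gave 1 symbol for 20826, several for 436 and none for 9780; 20758 matched RefSeq. Values became log2(intensity + 16), a probe set was kept at or above the 40th percentile in at least 3 arrays (19326, of which 14553 have 1 symbol), and the brightest stood for its gene.

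A 3-group fit (limma 3.58.1, R 4.3.3, two-sided, 6 residual degrees of freedom, variance trend in eBayes) gave the mean of model and treatment minus control, with Benjamini-Hochberg adjustment over 10973 genes. The fit was tested on simulated data. No pair of arrays had over 0.437% of probe sets at the same value.

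The comparison and the 32 gene lists were chosen with earlier results of these data known. Named genes are the 15 largest calls per direction (13 qualified as higher) with non-overlapping sides and a mean above the median gene, the 8 largest per direction without control 43, up to 4 members per list with the smallest p, and fixed genes (Igfbp1, Cyp26a1, Sftpd, Rnpep, Rarres1, Nmb, C3, Esr1, Pgr, Vegfa, Vegfb, Kdr). Markers of a list were summed as intensities, and their deviations are from each gene's mean over the 9 arrays. Alternatives were other offsets, normalization, filters, variance models, array weights, probe set rules, a replicate block, thresholds and each array left out. Figures used matplotlib 3.10.9 in Python 3.11.15.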

Additional observations from a re-analysis of the deposited data

Results flagged for a closer look

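Among 150 named genes and 32 list means, 13 had 1 of the 6 induced arrays far from the other 5, by a gap above 0.625 of the range; chance marks about 1 in 20. Model 21 was low for C3 (7.04, others 10.64 to 11.56), for Cyp2f4 (5.41, others 7.78 to 9.08) and for Atp1b1 (8.67, others 9.46 to 9.71). Its mean deviation was also low over the oestrogen-induced genes (-0.513, others 0.02 to 0.214) and over the secretory and defence genes (-1.087, others -0.105 to 0.307), lists that both hold C3. Model 22 was high for the T cell genes Cd3e (6.28, others 4.99 to 5.21) and Lck (6.54, others 5.46 to 5.75) and for Fam3b (6.02, others 4.48 to 4.99). Treatment 32 was low for the glucocorticoid receptor gene Nr3c1 (6.40, others 7.02 to 7.33) and for Epas1 (7.80, others 8.31 to 8.51) and high for Mfsd4a (5.28, others 4.92 to 5.04). Treatment 33 was high for Cpm (7.23, others 5.67 to 6.15), and model 23 for Lhcgr (5.51, others 5.03 to 5.16). None of these genes was called with all arrays.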

How the results depend on the processing

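The 63 calls, 16 higher and 47 lower, kept within 1.5 times their number when 64 was added before log2, with quantile normalization, median centring, a filter at the 60th percentile, 2 sides in place of 3 groups, no variance trend or a robust one; adding 1 gave 27 higher and left the total (77) and the lower count within that range. Other settings moved the counts of all, higher and lower calls: 34, 9 and 25 with no filter, 32, 9 and 23 with the mean of probe sets, 1405, 481 and 924 with array weights, 141, 53 and 88 at an adjusted p under 0.1, 3, 1 and 2 under 0.01, and 1681, 666 and 1015 at an unadjusted p under 0.05. A replicate block on the last digit of the array number gave 32, 21 and 11, of which 20 were among the 63. Correlations between arrays of different groups were also taken after each gene's group mean was subtracted. Same-digit arrays then correlated at -0.408 to 0.311 over 9 pairs, and 2 of 9 arrays correlated best with their own digit. So few values cannot tell whether same-digit arrays were paired. With each array left out, the total ran from 3 to 1237, the higher calls from 1 to 435 and the lower from 2 to 802. In the same fits the treatment against model count ran from 0 to 3, reached without model 23, the model against control count from 0 to 1372 and the treatment against control count from 0 to 716, both highest without control 43. Over 3116 alternatives for named genes, 2740 kept their side of the threshold, 227 lost the call and 149 gained it. A change of sign in a gene called in either fit occurred in 0. For the named genes called with all arrays this was largely fixed in advance, since their sides did not overlap. Genes that were not called could change sign within the 2740, as C3 did, at -1.76 to 1.97 with an array left out. Of 672 list medians 82 moved by more than 0.1 on the log2 scale and 28 changed sign. The cause of these shifts was not tested. Dim genes near the floor, such as Cyp26a1 in controls, limit the sizes, and 9 arrays limit the precision.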
